A study of Mus musculus with 3 samples.

Results

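The genes described here are Atf4, Ddit3, Trib3, Nupr1, Sesn2, Chac1, Asns, Slc3a2, Slc7a11 and Hspa5, the ATF4 and amino acid stress genes. They were chosen by symbol and matched to Ensembl gene identifiers. All 10 were found among 29267 mouse gene identifiers in the count tables, and all 10 passed the filter on low counts that left 17119 genes for testing. In neither Mll1-deleted nor MLL1-inhibited mouse embryonic stem cells did any of the 10 pass the test against control cells. The closest were Slc3a2, which was higher, and Nupr1, which was lower, in inhibited cells. In single wells correlations between the genes were close to 0 at a depth where many of them were at 0 in most wells, and Hspa5 correlated with other endoplasmic reticulum (ER) chaperones.

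The series measured single embryonic stem cells derived from mouse blastocysts. All cells share the labelled genotype Mll1fl/fl with Cre-ER TM on the C57BL/6J background. The 3 groups are control cells (Mll1fl/fl), cells labelled Mll1-/- (called deleted here) and cells labelled as Mll1 inhibition (called inhibited here). Each of 3 chips, called plates, carried all 3 groups, so each group has 3 sums of wells, 1 per plate. Neither the inhibitor, its dose and timing nor the deleted exons and the inducer of the Cre are named, and nothing says that the plates hold separate cultures. The plates may thus be technical replicates, and p-values measure only how much they vary.

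ATF4 is a transcription factor whose messenger RNA is translated when eukaryotic initiation factor 2 (eIF2) is phosphorylated, as happens when amino acids run short, when proteins misfold in the ER or when haem is lacking. It pairs with C/EBP proteins at short DNA elements and drives genes for amino acid uptake, amino acid synthesis and tRNA charging, and, under lasting stress, genes that slow growth or favour cell death. Because ATF4 is set mainly by translation, its own RNA need not follow its activity. The unfolded protein response runs beside this pathway, with ATF6 and XBP1 driving the ER chaperones.

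The promoters show which of the genes carry the letters these factors recognise. Windows of 300 bases, from 250 before to 50 after the annotated start, were taken from RefSeq (GRCm38.p6) for each of the 10 genes. The C/EBP-ATF response element, searched as TGATGNAA on both strands, occurred in 3.91% of all 32544 promoter windows and in 5 of the 10 members. These stretches are printed because they are the only matches in the members. Capitals mark the match, each stretch runs 5′ to 3′ on the strand of its gene, and a match on the opposite strand reads as the reverse complement.
Asns (chr6:7693214-7693243, minus strand): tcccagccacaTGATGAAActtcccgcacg
Chac1 (chr2:119351038-119351067, plus strand): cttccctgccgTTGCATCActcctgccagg
Nupr1 (chr7:126625562-126625591, minus strand): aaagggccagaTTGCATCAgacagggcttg
Trib3 (chr2:152344028-152344057, minus strand): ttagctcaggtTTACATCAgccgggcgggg
Slc7a11, far match (chr3:50443661-50443690, minus strand): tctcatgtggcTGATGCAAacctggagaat
Slc7a11, near match (chr3:50443642-50443671, minus strand): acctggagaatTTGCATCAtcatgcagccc

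Counted from the start base as 0, with negative numbers upstream, the match began at -23 in Asns, at -110 in Nupr1, at -193 in Chac1 and at -66 and -47 in Slc7a11. In Trib3 it began at 14 by the RefSeq start, which lies upstream of the GENCODE start given further on, so by GENCODE the match is upstream of the gene. For several other members too the RefSeq start of the window is not the GENCODE end of the gene. The windows of Atf4, Ddit3, Slc3a2, Sesn2 and Hspa5 held no match, which says only that these letters are not in these windows.

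Hspa5 carried another motif. The ER stress response element, searched as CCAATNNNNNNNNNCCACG on both strands, occurred in 0.120% of all windows. Of the members, Hspa5 alone had a match. Among 21 listed genes of ER chaperones and the unfolded protein response, 18 had a window and 7 of these matched (Hsp90b1, Calr, Canx, Pdia6, Dnajc3, Creld2 and Syvn1). Both motifs were chosen after the promoter sequences had been seen. Hspa5 and Hsp90b1 are printed because they moved together in single wells, as described further on.
Hspa5 (chr2:34772014-34772054, plus strand): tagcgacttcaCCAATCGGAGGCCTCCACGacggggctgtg
Hsp90b1, far match (chr10:86705627-86705667, minus strand): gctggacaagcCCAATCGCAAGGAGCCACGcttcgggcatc
Hsp90b1, near match (chr10:86705522-86705562, minus strand): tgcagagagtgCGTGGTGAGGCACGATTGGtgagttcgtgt

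Of 4610 wells of the 3 groups, 4413 had at least 1000 genes and under 20% mitochondrial counts and were kept, 1513 control, 1310 deleted and 1590 inhibited. A kept well held a median of 36355 unique molecular identifiers (UMIs, counted RNA molecules), and the 9 sums held 25914860 to 43773924 UMIs. By group the median was 39644 UMIs in control, 34721 in deleted and 32890 in inhibited wells. Levels below are CPM, a gene's UMIs in a sum scaled to a total common to all sums. Median mitochondrial shares were 3.81% to 4.16% in the deleted sums, 3.24% to 3.48% in the inhibited and 3.06% to 3.18% in the control sums. Some well barcodes recur, 503 on plates 1 and 2 and 137 on all 3 plates. Kmt2a, the Mll1 gene, read 50.2, 50.2 and 54.7 CPM in control, 62.1, 49.9 and 39.2 in deleted and 40.6, 43.4 and 46.7 in inhibited sums, so the counts over the whole gene do not separate the deleted cells, and whether they cover the deleted part is not given.

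Summed over 9 pluripotency markers, levels were 6193 to 6357 CPM in control, 5117 to 6553 in deleted and 4538 to 5378 in inhibited sums, with Pou5f1 and Sox2 present in every sum. Dppa5a alone, at 3823 to 5847 CPM, makes up most of this sum. Summed over 7 trophectoderm markers, mostly Krt18 and Krt8, they were 733 to 878 CPM in control, 963 to 1598 in deleted and 551 to 887 in inhibited sums. Fibroblast or feeder markers (8 genes) summed to 1.94 to 18.1 CPM, primitive endoderm markers (6 genes) to 8.64 to 15.5 and blood markers (4 genes) to 3.67 to 11.2, with Hbb-bs, Ptprc, Lum, Postn and Elf5 at 0 in some sums. The part these differences have in the results below was not tested. In sums of wells, fewer expressing cells and less RNA per cell cannot be told apart.

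Per kilobase of merged exons, the mean level over the 9 sums was 356 CPM for Slc3a2, 191 for Hspa5, 133 for Nupr1, 125 for Atf4 and 86.3 for Asns. It was 22.1 for Chac1, 13.9 for Trib3, 11.9 for Ddit3, 5.94 for Sesn2 and 0.0515 for Slc7a11. The sources used here do not say which transcript end was counted, so this order is approximate.

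**Figure D1:**
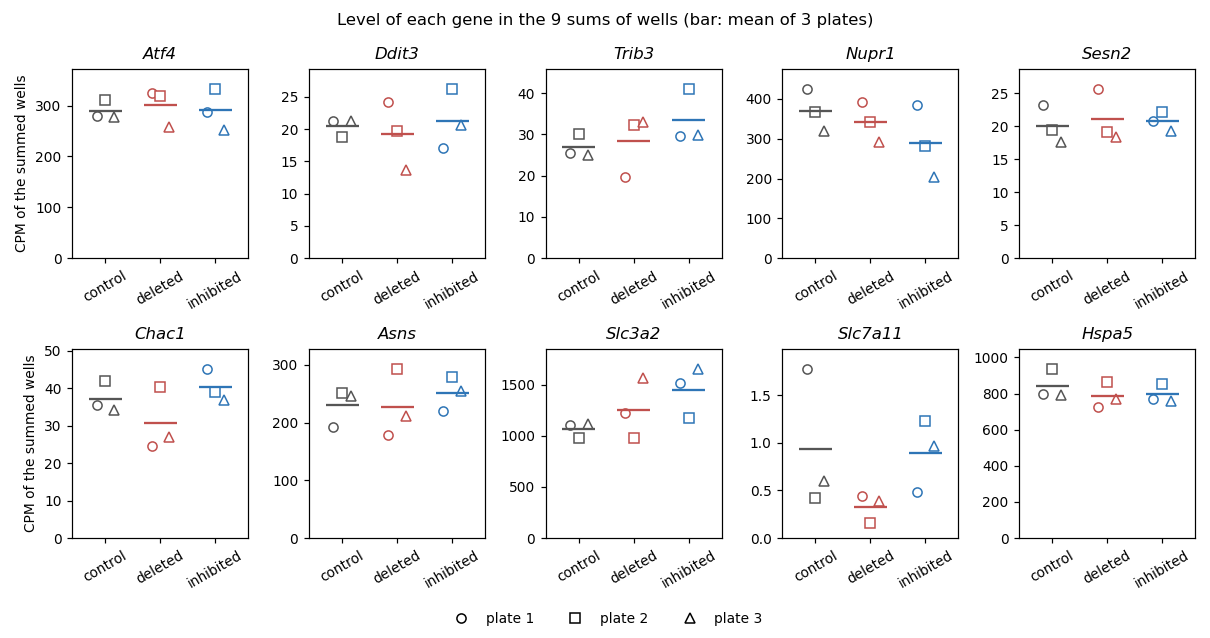
CPM of each gene in the 9 sums of wells, with 1 marker shape per plate and a bar at the mean of the 3 plates, each panel starting at 0. Slc3a2 in the inhibited cells lies above all control sums (1179 to 1656 against 980 to 1112 CPM), Nupr1 is lowest in the inhibited cells of each plate, and the other genes overlap between inhibited and control cells.

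The first group holds the regulators. Atf4 (chromosome 15, 80255184 to 80257541, plus strand, GRCm38) read 280, 311 and 278 CPM on plates 1, 2 and 3 in control cells, 324, 319 and 258 in deleted and 288, 333 and 253 in inhibited cells. All 3 groups overlapped, with the lowest values on plate 3. The log2 difference was 0.05 ± 0.08 (SE) for deleted against control and 0.00 ± 0.08 for inhibited against control, and adjusted p was 0.902 and 0.999 (edgeR's quasi-likelihood test, 3 sums per group).

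Ddit3 (chromosome 10, 127290774 to 127296288, plus strand), which encodes CHOP, a factor linked to cell death under lasting stress, was at 21.3, 18.8 and 21.2 CPM in control cells, 24.2, 19.7 and 13.7 in deleted and 17.1, 26.2 and 20.6 in inhibited cells. Its spread within the deleted and inhibited groups exceeded the difference between group means. Log2 differences were -0.11 ± 0.22 (deleted) and 0.05 ± 0.22 (inhibited), with adjusted p of 0.925 and 0.976.

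Trib3 (chromosome 2, 152337422 to 152344032, minus strand), a pseudokinase induced by ATF4 that dampens the response, was at 25.4, 30.1 and 25.1 CPM in control, 19.7, 32.2 and 32.9 in deleted and 29.6, 41.0 and 29.9 in inhibited cells. In inhibited cells it was above the control sum of each plate, yet the ranges overlapped. Its log2 difference was 0.31 ± 0.17 there (adjusted p = 0.633) and 0.05 ± 0.17 in deleted cells (adjusted p = 0.955).

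Nupr1 (chromosome 7, 126623249 to 126630861, minus strand), a small stress-induced chromatin protein, gave 425, 368 and 319 CPM in control cells, 393, 343 and 292 in deleted and 384, 282 and 205 in inhibited cells. On each plate the order was control, deleted, inhibited, although the groups overlapped because plates 1 to 3 differ in level. The log2 difference was -0.38 ± 0.09 in inhibited cells (unadjusted p = 0.00180, adjusted p = 0.355) and -0.11 ± 0.09 in deleted cells (adjusted p = 0.745). Between inhibited and deleted cells it was -0.27 ± 0.09 (adjusted p = 0.235), and -0.406 without plate 1 and -0.152 without plate 3.

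Sesn2 (chromosome 4, 132492032 to 132510501, minus strand) encodes sestrin 2, a leucine sensor that restrains the growth kinase complex mTORC1. It was at 23.2, 19.5 and 17.5 CPM in control, 25.7, 19.2 and 18.3 in deleted and 20.8, 22.2 and 19.3 in inhibited cells, and all groups overlapped. Both log2 differences against control were 0.06 ± 0.16, with adjusted p of 0.943 (deleted) and 0.954 (inhibited).

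The second group acts on amino acids and glutathione. Slc3a2 (chromosome 19, 8706882 to 8723369, minus strand) encodes the CD98 heavy chain, the shared subunit of several amino acid exchangers. It gave 1105, 980 and 1112 CPM in control cells, 1223, 977 and 1566 in deleted and 1520, 1179 and 1656 in inhibited cells. Each inhibited sum exceeded every control sum, and the deleted sums spanned both. Its log2 difference in inhibited cells was 0.43 ± 0.08, or 1.35-fold (unadjusted p = 0.000320, adjusted p = 0.230). In deleted cells it was 0.21 ± 0.08 (unadjusted p = 0.0258, adjusted p = 0.407), with the plate 2 sums level and a log2 difference of 0.0688 without plate 3, and between the treated groups 0.22 ± 0.08 (adjusted p = 0.271).

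Asns (chromosome 6, 7675169 to 7693254, minus strand), asparagine synthetase, was at 192, 251 and 246 CPM in control, 178, 293 and 211 in deleted and 220, 280 and 254 in inhibited cells. Plate 1 was lowest in all 3 groups. Log2 differences were -0.03 ± 0.09 (deleted, adjusted p = 0.949) and 0.13 ± 0.09 (inhibited, adjusted p = 0.738).

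Chac1 (chromosome 2, 119351229 to 119354381, plus strand) encodes an enzyme that degrades glutathione. It was at 35.5, 42.0 and 34.3 CPM in control cells, 24.7, 40.5 and 27.0 in deleted and 45.2, 39.1 and 36.8 in inhibited cells. The deleted sums lay below the control sum of their plate on all 3 plates, but on plate 2 by little. The log2 difference was -0.29 ± 0.16 in deleted cells (adjusted p = 0.604), 0.13 ± 0.16 in inhibited cells (adjusted p = 0.889) and 0.42 ± 0.16 between them (unadjusted p = 0.0280, adjusted p = 0.300). That last value was 0.184 without plate 1, 0.659 without plate 2 and 0.210 without the deepest wells.

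Slc7a11 (chromosome 3, 49892526 to 50443614, minus strand), the cystine carrier that pairs with the Slc3a2 product, was close to undetected. It gave 235 UMIs in all kept wells, found in 73 wells, and 29 of them in 1 well. Levels ran from 0.155 to 1.78 CPM over the 9 sums, and the deleted sums (0.438, 0.155 and 0.391 CPM) were all below the inhibited ones (0.479, 1.23 and 0.967). The log2 difference between those groups was 1.64 ± 0.84 (adjusted p = 0.432), 0.838 without plate 2 and 0.195 without the deepest wells, and against control it was -1.42 ± 0.83 in deleted cells (adjusted p = 0.621) and 0.22 ± 0.84 in inhibited cells (adjusted p = 0.973).

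Hspa5 (chromosome 2, 34771970 to 34777547, plus strand) encodes BiP, the main chaperone of the ER lumen. It read 796, 937 and 793 CPM in control, 724, 866 and 771 in deleted and 771, 855 and 759 in inhibited cells. On each plate both treated groups were below control, by less than the range between plates. Log2 differences were -0.10 ± 0.05 (deleted, adjusted p = 0.582) and -0.08 ± 0.05 (inhibited, adjusted p = 0.709).

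**Figure D2:**
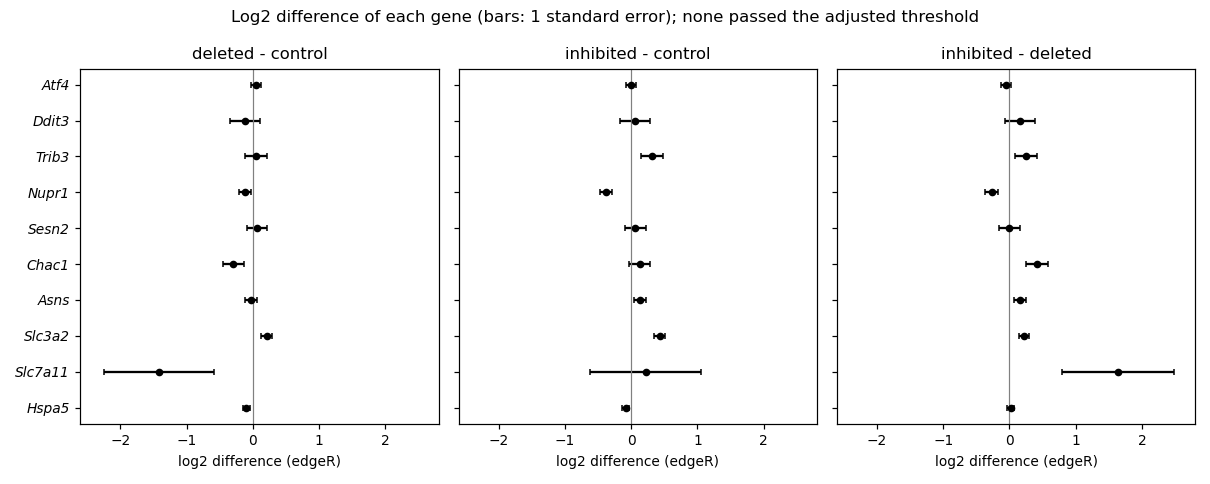
Log2 difference of each gene for deleted against control, inhibited against control and inhibited against deleted cells (edgeR, bars of 1 standard error, 9 sums). Most points lie near 0, Slc3a2 (0.43) and Nupr1 (-0.38) stand off 0 in inhibited cells, and the bars of Slc7a11 are the widest.

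Read against all 17119 genes, these counts were ordinary. For deletion 0 of the 10 passed an adjusted p of 0.05, where 0.0350% of all genes did, and 1 had an unadjusted p under 0.05, where 10.3% did. For inhibition 0 passed (0.00584% of all genes) and 2 had an unadjusted p under 0.05 (9.0%). For inhibited against deleted cells 0 passed (0.310%) and 3 had an unadjusted p under 0.05 (13.7%). The groups did not overlap for 0 members in deleted against control (11% of all genes), for 1 in inhibited against control (11.3%) and for 1 in inhibited against deleted cells (11.8%). The median log2 difference of the members was -0.06 (deletion), 0.09 (inhibition) and 0.16 (inhibition minus deletion), and that of all genes 0.00 in each.

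The call on Slc3a2 and Nupr1 in inhibited cells turns on the settings. Both passed when no filter on low counts was used (adjusted p = 0.000191 and 0.0163), when every well was thinned to equal depth (0.000223 and 0.0250) and with DESeq2 (0.000214 and 0.00688). Of all genes given an adjusted p, these settings called 108 of 29206, 105 of 10844 and 277 of 4507, against 1 of 17119. Across these 3 settings the size hardly moved, from 0.41 to 0.43 for Slc3a2 and from -0.36 to -0.38 for Nupr1. It moved more with each plate left out in turn, from 0.364 to 0.518 for Slc3a2. For Nupr1 it was then -0.514 without plate 1 and -0.261 without plate 3. Neither passed in any of the other 7 planned settings, each plate left out in turn included, and over those 7 adjusted p ran from 0.200 to 0.985 for Slc3a2 and from 0.341 to 0.995 for Nupr1.

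Plates differed more clearly than groups for some of these genes. In the same fit 3 of 10 members passed the test across plates, where 4.98% of all genes did. Nupr1 averaged 401 CPM over the 3 groups on plate 1, 331 on plate 2 and 272 on plate 3 (adjusted p = 0.0152). Slc3a2 averaged 1283, 1046 and 1445 CPM (adjusted p = 0.0256), and Asns 197, 275 and 237 CPM (adjusted p = 0.0309). Hspa5 (adjusted p = 0.0601) and Atf4 (adjusted p = 0.111) were highest on plate 2 without passing. What differs between the plates is not in the labels.

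The wider pathway was read from lists of genes. Of 24 further ATF4 targets, all tested, 0 passed for deletion and 0 for inhibition, with 11 and 13 above 0 and medians of -0.01 and 0.01. The one that passed between the treated groups was Eif4ebp1, whose product 4E-BP1 restrains cap-dependent translation. It was at 4007, 4590 and 3604 CPM in control, 3484, 4129 and 3581 in deleted and 4729, 5380 and 4134 in inhibited cells, and the lowest inhibited sum (plate 3) was just above the highest deleted sum (plate 2). The log2 difference between inhibited and deleted cells was 0.34 ± 0.05 (adjusted p = 0.0273), made of -0.12 ± 0.05 for deletion and 0.22 ± 0.05 for inhibition (adjusted p = 0.433 and 0.313). It was not called without plate 1 (adjusted p = 0.388), plate 2 (0.442), the deepest wells (0.0636) or the replicate block (0.444). For inhibition against control it was called without a filter on low counts (edgeR, adjusted p = 0.0218) and with DESeq2 (0.0254). With DESeq2 without a filter it was not called there (adjusted p = 0.0624).

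Other ATF4 targets near the top by p did not pass. Atf5, a related transcription factor, was at 26.4, 13.9 and 21.1 CPM in control, 33.9, 17.4 and 28.2 in deleted and 24.1, 13.5 and 15.8 in inhibited cells, a log2 difference of -0.56 ± 0.15 between the treated groups (adjusted p = 0.156). Psat1, an enzyme of serine synthesis, had a log2 difference of 0.21 ± 0.07 in inhibited cells (adjusted p = 0.431). Stc2, which encodes a secreted glycoprotein, had one of 0.61 ± 0.22 there (adjusted p = 0.448). Fgf21, a secreted hormone, had only 67 UMIs in the 9 sums, at most 0.602 CPM.

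Of 13 listed amino acid transporters 11 were tested, and 0 passed in any of the 3 comparisons. Slc7a3, a cationic amino acid carrier, had the smallest p for deletion, with 46.7, 61.3 and 73.5 CPM in control and 37.8, 59.1 and 56.9 in deleted cells (log2 difference -0.24 ± 0.11, adjusted p = 0.488). Of 19 tRNA synthetases 0 passed in any comparison, with 15 above 0 for deletion (median 0.07) and 13 for inhibition (median 0.05). Qars, the glutaminyl synthetase, was at 209, 211 and 198 CPM in control, 236, 233 and 380 in deleted and 311, 258 and 313 in inhibited cells. Neither group overlapped control, at log2 differences of 0.43 ± 0.14 (adjusted p = 0.332) and 0.50 ± 0.14 (adjusted p = 0.365).

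Of 15 genes of eIF2 signalling, which hold the 4 eIF2 kinases, 0 passed. Ppp1r15b, a regulatory subunit that guides the eIF2 phosphatase, was at 30.1, 29.2 and 33.3 CPM in control and 23.9, 23.9 and 24.9 in inhibited cells (log2 difference -0.34 ± 0.13, adjusted p = 0.484). Of 21 ER chaperone and unfolded protein genes 0 passed. Above 0 were 14 for deletion and 12 for inhibition (medians 0.03 and 0.01). For inhibition 6 of 21 had an unadjusted p under 0.05, where 9.0% of all genes did, 5 of them higher than control, among them Creld2 (75.0, 80.7 and 96.9 CPM in control against 97.7, 102 and 113 in inhibited cells, adjusted p = 0.365) and Pdia3 (331, 363 and 290 against 417, 409 and 391, adjusted p = 0.404). These 2 genes were above control while Hspa5 was not. Ern1, the kinase and nuclease IRE1 that splices Xbp1, was low and lay on the other side, at 0.247, 1.91 and 5.00 CPM in control and 0.479, 0.0703 and 0.314 in inhibited cells (log2 difference -3.07 ± 1.06, adjusted p = 0.427).

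Of 9 tested genes of the oxidative stress factor NRF2, 0 passed for deletion or inhibition with edgeR and 2 passed between the treated groups, where 0.310% of all genes did, Srxn1 (sulfiredoxin) and Nqo1 (a quinone reductase). Srxn1 was at 40.9, 41.9 and 35.3 CPM in control, 57.2, 54.7 and 46.5 in deleted and 33.0, 30.03 and 26.5 in inhibited cells, and no groups overlapped. Its log2 difference between inhibited and deleted cells was -0.82 ± 0.11 (adjusted p = 0.0256). Nqo1 was at 71.3, 88.5 and 96.0 CPM in control, 89.1, 127 and 103 in deleted and 57.1, 72.9 and 72.4 in inhibited cells, a difference of -0.65 ± 0.10 (adjusted p = 0.0309). Srxn1 was not called without any 1 of the 3 plates (adjusted p = 0.0591 to 0.379), and Nqo1 not without plate 1 (0.283) or plate 2 (0.397). Both were also lost without the deepest wells (adjusted p = 0.142 and 0.0956) and without the replicate block (0.147 and 0.281), and Srxn1 with thinned wells (0.0521). With DESeq2 Srxn1 was called against control for deletion (adjusted p = 0.0274) and for inhibition (0.0330), and Nqo1 for inhibition (0.0369). That setting called 325 of 10813 genes given an adjusted p for deletion and 277 of 4507 for inhibition. With DESeq2 without a filter on low counts, neither gene passed for inhibition (adjusted p = 0.0827 and 0.0985), and Srxn1 passed for deletion (0.0355). Of 10 p53 targets, read because Sesn2 is also one, 0 passed, with 8 above 0 for deletion and 9 for inhibition (medians 0.14 and 0.11). Slc7a11, also an NRF2 target, was higher in inhibited than in deleted sums, the opposite order to Srxn1 and Nqo1, without passing. Against control, 7 of the 9 tested NRF2 genes were above 0 for deletion and 2 for inhibition. Those with the smallest p went the other way. Prdx1 was lower in deleted cells (log2 difference -0.21 ± 0.05, adjusted p = 0.222) and Hmox1 higher in inhibited cells (0.31 ± 0.08, adjusted p = 0.358).

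To compare single wells, each was thinned to 5869 UMIs, the 10th percentile of kept wells, which left 3971 wells (442 were shallower). The shallower wells were uneven between groups. On plates 1, 2 and 3 they were 38, 39 and 26 of 617, 558 and 338 kept control wells. In deleted cells they were 40, 22 and 101 of 414, 354 and 542. In inhibited cells they were 52, 64 and 60 of 542, 566 and 482. Their part in the differences between groups was not tested. Before thinning, wells with a UMI made up 90.6% for Atf4, 78.7% for Nupr1, 26.6% for Ddit3 and 1.65% for Slc7a11. Thinned, the share was 97.1% for Slc3a2, 88.2% for Hspa5, 67.9% for Atf4, 60.1% for Asns and 50.4% for Nupr1. It was 12.4% for Chac1, 12.3% for Trib3, 10.7% for Sesn2, 8.91% for Ddit3 and 0.252% for Slc7a11. A well held UMIs of a median of 4 of the 10 genes, and of at most 9. The 15 wells without cells (median 165 UMIs) held 5 UMIs of Slc3a2, 1 of Hspa5 and 0 of the other 8 genes among 2719 in all, and a count of 0 there allows up to 1103 CPM (3 counts, counting error only), so free RNA could not be measured at the levels of these 8 genes.

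**Figure D3:**
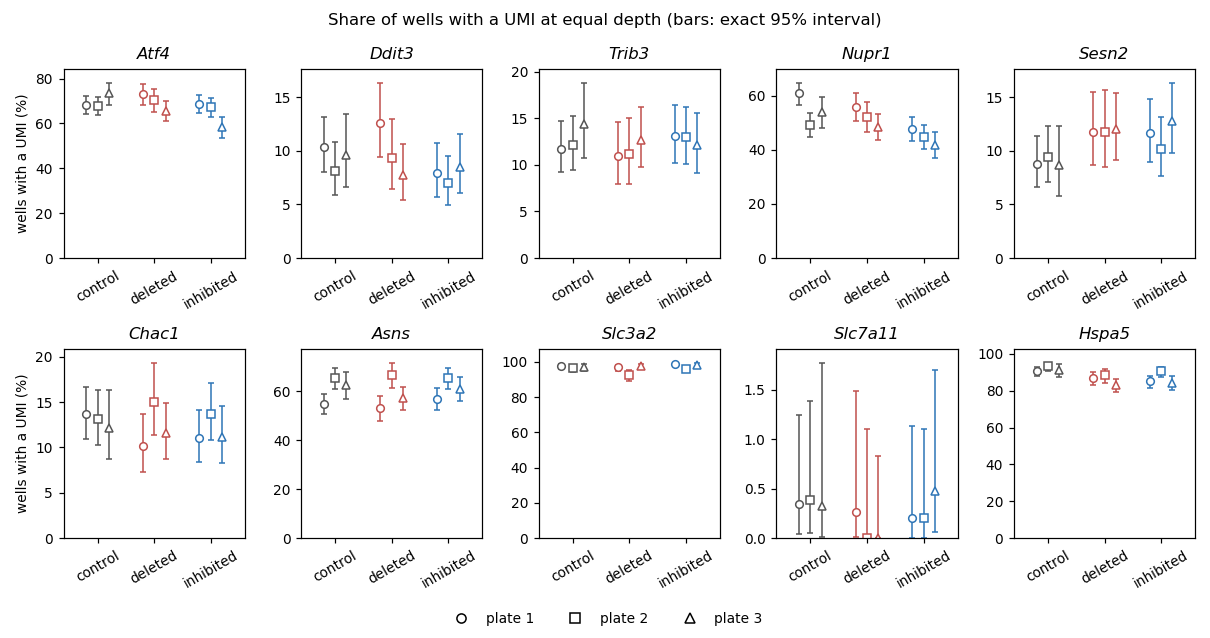
Share of wells with at least 1 UMI after thinning to 5869 UMIs, per group and plate, with exact Clopper-Pearson 95% intervals (counting error only); each panel has its own scale from 0. Nupr1 is lowest in the inhibited cells (41.7% to 47.6%), and Hspa5 is lower in both treated groups than in control cells.

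Nupr1 was found in 60.8%, 49.1% and 53.8% of control wells, 55.9%, 52.1% and 48.3% of deleted wells and 47.6%, 44.6% and 41.7% of inhibited wells on plates 1, 2 and 3. The inhibited shares lay below all shares of both other groups. The mean difference was -9.96 ± 4.76 percentage points (SD, n = 3) against control and -7.47 ± 0.869 against deleted cells, both with an exact permutation p of 0.25, the smallest that 3 plates allow. With wells thinned to the 25th percentile the inhibited and control shares of Nupr1 overlapped. The mean difference between inhibited and deleted cells was -4.31 points at that depth and -5.48 points at the 5th percentile. Among 7085 genes seen in at least 5% of wells thinned to the 10th percentile, 15.2% were lower without overlap in inhibited than in control cells and 8.65% in inhibited than in deleted cells. Their median difference was -1.03 points against control and -0.305 points against deleted cells.

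Hspa5 was found in 90.5%, 93.3% and 91.3% of control wells, 86.9%, 88.3% and 83.0% of deleted wells and 85.1%, 90.4% and 84.4% of inhibited wells. Neither treated group overlapped control. The mean differences were -5.65 ± 2.44 points in deleted and -5.07 ± 2.10 points in inhibited cells (SD, n = 3, exact permutation p = 0.25 for both), where 10.0% and 15.2% of all 7085 genes were lower without overlap. The overlap of inhibited with control returned when wells were thinned to the 25th or 5th percentile or when the stricter well filter was used. In deleted cells the mean difference was -2.76 points at the 25th percentile, still without overlap. The median difference of the 7085 genes was itself -0.756 points in deleted and -1.03 points in inhibited cells.

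Sesn2 was found in 8.81%, 9.44% and 8.65% of control wells, 11.8%, 11.7% and 12.0% of deleted wells and 11.6%, 10.2% and 12.8% of inhibited wells. The mean differences were 2.88 ± 0.534 and 2.56 ± 1.73 points (SD, n = 3, exact permutation p = 0.25 for both), where 2.71% of such genes were higher without overlap in deleted and 1.06% in inhibited cells. The CPM of Sesn2 shows no such separation, and thinning to the 25th or 5th percentile brought the overlap back, so no order is read from these shares. For the other 6 genes seen in at least 5% of wells the shares overlapped between each treated group and control. Atf4 in inhibited cells was at 68.8%, 67.3% and 58.3% against 68.4%, 67.8% and 73.4% in control, so its lower share rests on plate 3.

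**Figure D4:**
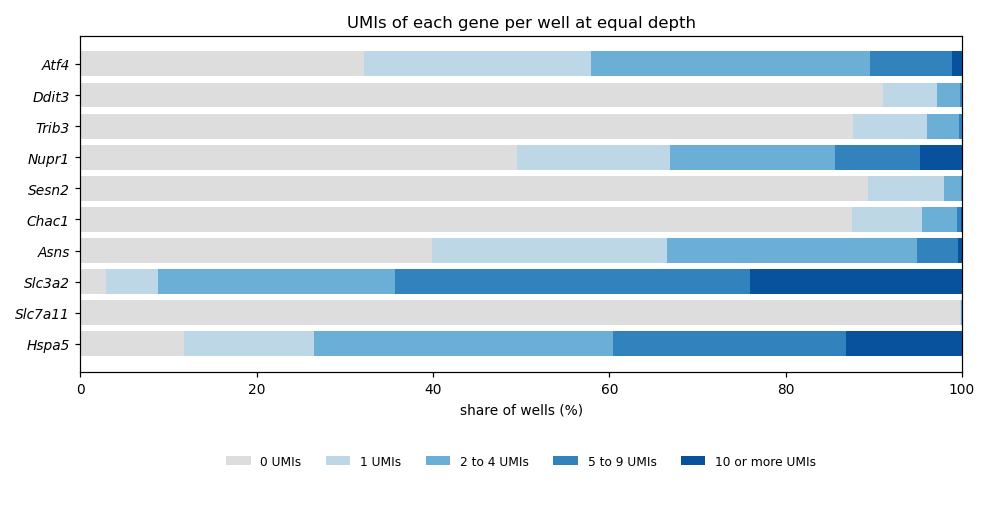
Share of the 3971 wells holding 0, 1, 2 to 4, 5 to 9 or at least 10 UMIs of each gene after thinning to 5869 UMIs. Slc3a2 was absent from 2.95% of wells, Nupr1 from 49.6% while 4.71% of wells held at least 10 of its UMIs, and Slc7a11 was absent from almost all.

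The genes also differed in how unevenly wells carried them. The variance of UMIs over wells divided by their mean, which is 1 for pure counting noise, had a median over the 9 sums of 7.89 for Nupr1 (4.36 to 11.9), against 2.62 for Atf4 (2.20 to 4.16), 3.16 for Slc3a2 and 2.14 for Asns. The top 199 wells of each gene held 37.7% of all Nupr1 UMIs, 23.9% of those of Atf4, 24.2% of Asns and 14.7% of Slc3a2. For the scarcer Ddit3, Chac1, Trib3 and Sesn2 they held 58.5% to 71.9%, as this share depends on the level too. For Hspa5 the median of the variance over the mean was 5.12 and the highest value 34.1, in deleted cells of plate 3. That value comes with 1 well, picked out after its value was seen, holding 251 of its 5869 UMIs as Hspa5, together with 52 of Hsp90b1 (mean over all wells 3.46) and 35 of Manf (mean 1.91), both ER proteins of the unfolded protein response.

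Correlations between wells were taken within each of the 9 sums at equal depth (Spearman, median over the 9). The 9 pairs with Slc7a11, which was seen in 10 of these wells, rest on the 7 sums where it had a UMI. They are descriptions, since wells of a sum share library and depth, and 5 of the genes were at 0 in over 87% of wells, which limits how far a correlation can lie from 0. All 45 pairs of members had medians between -0.0553 and 0.0601. The highest was Chac1 with Slc3a2 (0.0601, above 0 in 9 of 9 sums), followed by Atf4 with Chac1 (0.0576) and Asns with Chac1 (0.0560), each above 0 in 8. Slc3a2 with Hspa5 had the lowest median (-0.0553, below 0 in all 9). With wells thinned to the 25th percentile, 12724 UMIs, the highest pair was Asns with Chac1 at 0.106, and 10 of 45 pairs were above 0 in all 9 sums instead of 1.

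Eif4ebp1, 1 of the 24 further ATF4 targets, averaged 25.4 UMIs per well at equal depth, more than any member. It may therefore weigh heavily in their sum, and its part in the next values was not tested. Against the summed UMIs of these 24 targets several members correlated somewhat higher than in pairs with each other. Such a sum carries less counting noise than a single scarce gene, so the 2 kinds of correlation are not directly comparable. Nupr1 correlated at 0.135, Asns at 0.124, Chac1 at 0.120 and Trib3 at 0.0507, each above 0 in 9 of 9 sums. Slc3a2 reached 0.128 (above 0 in 7) and Atf4 0.0694 (in 8). Hspa5 was at -0.0611, above 0 in 2 of 9 sums, and Ddit3 at -0.0167. Atf4 RNA itself correlated at 0.107 with the summed tRNA synthetases, above 0 in 9 of 9 sums.

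Hspa5 correlated at 0.301 with the 21 listed ER chaperone and unfolded protein genes, above 0 in 9 of 9 sums (0.223 to 0.348). It also correlated with the number of genes seen at equal depth (0.146) and with the UMIs of the well before thinning (0.0892). Its closest partners among 4888 genes seen in at least 10% of wells were Manf (0.227), Hsp90b1 (0.220) and Pdia3 (0.177), where the 99th percentile of the genes was 0.0795. The 3 highest of so many genes lie above that percentile by construction, here and for the members below. Manf is a secreted ER protein, Hsp90b1 the ER paralogue of the chaperone Hsp90, and Pdia3 a disulphide isomerase. All 3 are on the list of ER chaperones, and the ER stress response element is in the windows of Hspa5 and Hsp90b1 printed above, but not in that of Pdia3. Manf had no promoter window, so it could not be searched.

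**Figure D5:**
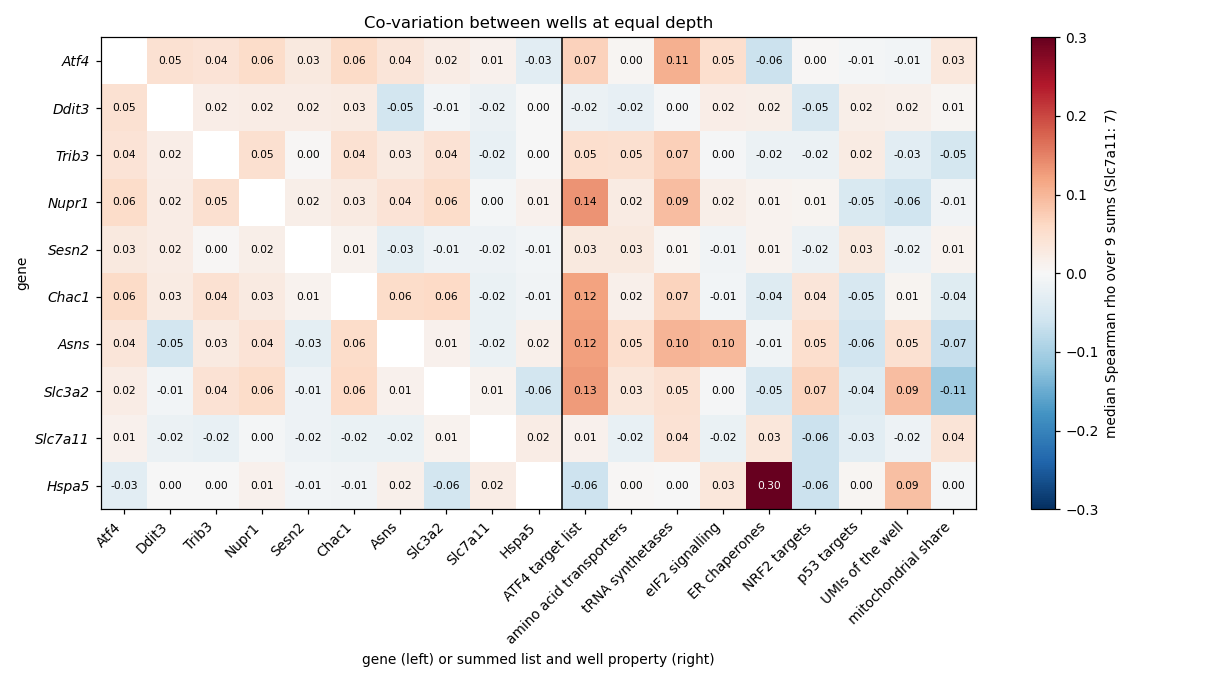
Median Spearman correlation over the 9 sums (7 for Slc7a11) between the members (left of the line) and with summed gene lists, the UMIs of the well and its mitochondrial share (right), wells at equal depth. Hspa5 with the ER chaperones (0.301) is the highest value shown, and pairs of members lie between -0.0553 and 0.0601.

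Slc3a2 had partners of similar strength but of other kinds. The closest were Txn1, thioredoxin (0.306), 1810037I17Rik (0.278) and Mkrn1, a ubiquitin ligase (0.251), all above 0 in 9 of 9 sums, where the 99th percentile was 0.114. Slc3a2 also correlated at -0.108 with the mitochondrial share (below 0 in all 9) and at 0.0922 with the UMIs of the well. The part of either in these values was not tested.

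For the remaining members the closest partners were weak. For Chac1 they were Herpud1 (0.100), Psph (0.0939) and Eif4ebp1 (0.0879), all 3 on the list of ATF4 targets, where the 99th percentile was 0.0550. Herpud1 and Eif4ebp1 were above 0 in 9 of 9 sums and Psph in 7. Eif4ebp1 was also a partner of Asns (0.0989), after the translation factor gene Eif5a (0.118) and Gm8355 (0.114). Nupr1 was closest to Gm6083 (0.119), Nr0b1 (0.116) and Dppa5a (0.115), the last 2 being genes of pluripotent cells. Trib3 was closest to Bag4 (0.0795), Cars, a tRNA synthetase gene (0.0784), and Csnk2a1 (0.0728). Atf4 had Wdr82, Srm and Hist1h2ap (0.0742 to 0.0819), and Sesn2 had Slc19a2, Ncoa3 and Rpl3 (0.0626 to 0.0834). Ddit3 and Slc7a11 were seen in too few wells to be ranked.

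Joint detection gave a similar picture. At least 3 of the 5 genes Ddit3, Trib3, Chac1, Nupr1 and Sesn2 were found in 163 of 3971 wells (4.10%), where the product of their single shares within each sum gives 136.0 wells and the found number was above that in 7 of 9 sums. The share ran from 2.84% to 5.87% over the 9 sums. It differed from control by 0.486 ± 1.10 points in deleted and by -1.06 ± 1.20 points in inhibited cells (SD, n = 3, exact permutation p = 0.75 and 0.25).

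The 86 wells left out for their mitochondrial share, 51 of them deleted, carried some of these genes at other levels. As CPM of the non-mitochondrial UMIs, Slc3a2 was at 755 in them and at 1315 in kept wells, lower on each plate (611, 656 and 892 against 1331, 1060 and 1566). Its median per well was 493 against 1083. Atf4 went the other way, at 696 against 304 CPM, with medians per well of 253 and 236. One of the 86 wells held 21.1% of their Atf4 UMIs, and without it the value was 587 CPM. Hspa5 was at 822 against 843 CPM and Nupr1 at 291 against 351, each higher on some plates and lower on others.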

How the data were processed

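The authors deposited raw UMI counts per gene and well, 1 table per plate. The submitters' processing notes name STAR 2.5.2b, featureCounts, Subread 1.4.6-p1 and the mm10 build; strand and multi-mapping rules are not given in the sources used here. Rows naming no mouse gene (0.646% to 0.752% of UMIs) were left out. No doublet caller was run; leaving out the deepest 5% of wells of each sum was an alternative. Counts of kept wells were summed per plate and group. The sums were tested with edgeR 4.0.16 (R 4.3.3, quasi-likelihood, TMM factors, filterByExpr, plate as a block, Benjamini-Hochberg adjustment over all tested genes, threshold 0.05); the standard error is the log2 difference over the square root of F. The labels give the plates, and deviations from group means correlated at 0.301 to 0.480 between sums of 1 plate (9 pairs) and at -0.304 to -0.0403 between plates (18 pairs). Deviations sum to 0 within a group, so values above 0 within plates bring values below 0 between plates, and the 2 ranges are not independent. Single wells were thinned with a fixed seed. Gene names and coordinates are from GENCODE M21 (28682 of 29267 identifiers named). DESeq2 1.42.0, other scaling, filters, depths and left-out plates were alternatives. Named genes were the members, up to 3 genes of each list with the smallest p in each comparison, the 3 closest partners of each member seen in at least 10% of wells, and Kmt2a. The members and lists were chosen with earlier results of these data known. Scripts were tested on simulated data.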

Additional observations from a re-analysis of the deposited data

Results flagged for a closer look

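In the test of inhibited against deleted cells, 3 genes of the lists differed between the 2 treatments: Eif4ebp1 (log2 difference 0.34), Srxn1 (-0.82) and Nqo1 (-0.65). All 3 calls were lost without plate 1, without plate 2, without the deepest wells and without the replicate block. None of the 3 passed against control in the edgeR test reported. With DESeq2 all 3 passed for inhibition against control (adjusted p = 0.0254, 0.0330 and 0.0369) and Srxn1 for deletion (0.0274), and Eif4ebp1 passed for inhibition in edgeR without a filter on low counts (0.0218). DESeq2 called 277 of 4507 genes given an adjusted p for inhibition and 325 of 10813 for deletion. With DESeq2 without a filter, none of the 3 passed for inhibition (adjusted p = 0.0624, 0.0827 and 0.0985), and Srxn1 passed for deletion (0.0355). The 2 treatments share the same control sums.

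In wells left out for their mitochondrial share, which no comparison uses, Atf4 was at 696 CPM of the non-mitochondrial UMIs (exact Poisson interval 660 to 734, counting error only), against 304 in kept wells. By plate it was 421, 627 and 876, against 307, 328 and 276 in kept wells. Medians per well were 217, 248 and 264 against 248, 239 and 220, so plate 1 was lower by this measure. One well held 36.4% of the plate 3 UMIs, and without it plate 3 was at 648.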

How the results depend on the processing

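No member passed against control in the analysis reported, and leaving out each plate in turn gave 0 in all 3 comparisons (edgeR). For inhibition 2 members, Slc3a2 and Nupr1, passed without a filter on low counts, with thinned wells, with DESeq2, and with DESeq2 without a filter (added after seeing the data). These settings also called more genes in all, out of differing numbers given an adjusted p. They called 108 of 29206 without a filter and 105 of 10844 thinned. DESeq2 called 277 of 4507, and 340 of 25845 without a filter, against 1 of 17119 in the analysis reported. Without the replicate block 0 genes were called for inhibition and 0 for deletion (edgeR), and 3 instead of 53 between the treatments. Of 20 combinations of member and treatment, 6 had shares of wells that did not overlap control: Hspa5 lower in both, Nupr1 lower in inhibited, Sesn2 higher in both, and Slc7a11 lower in deleted cells on 1, 0 and 0 wells against 2, 2 and 1. Of all genes seen in at least 5% of wells, 10.0% lay lower and 2.71% higher without overlap after deletion, against 15.2% and 1.06% under inhibition. The members' number was 1 at the 25th and 2 at the 5th percentile of depth, and 7 to 11 with each plate left out (7 without plate 1, 10 without plate 2, 11 without plate 3), where 2 sums per group separate more easily by construction. The share of all genes was not computed under these alternatives. Wells with several stress genes were 4.10% of all, 23.0% when 2 of the 5 genes were enough and 13.1% at the 25th percentile.

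These log2 differences changed sign, and none passed the test under either setting; the cause was not tested. With each plate left out in turn, those for deletion ran from -0.0306 to 0.124 (Atf4), -0.281 to 0.129 (Ddit3), -0.132 to 0.258 (Trib3) and -0.163 to 0.0620 (Asns). Those for inhibition ran from -0.0461 to 0.0708 (Atf4), -0.162 to 0.203 (Ddit3), -0.00174 to 0.233 (Chac1), -0.631 to 1.16 (Slc7a11) and -0.00395 to 0.157 (Sesn2). Between the treatments they ran from -0.101 to 0.00529 (Atf4), -0.0262 to 0.484 (Ddit3), -0.108 to 0.132 (Sesn2) and -0.0324 to 0.0389 (Hspa5). Without the deepest wells, Ddit3 was 0.127, Trib3 -0.0165 and Asns 0.00163 for deletion, Atf4 -0.0420 and Slc7a11 -0.958 for inhibition, and Ddit3 -0.0344 between the treatments. With thinned wells, Ddit3 was -0.264 for inhibition, and Ddit3 -0.246, Trib3 -0.0622 and Sesn2 0.0769 between the treatments. With the stricter well filter, Atf4 was -0.00150 for inhibition and Sesn2 0.0202 between the treatments. Slc7a11 was -0.0726 for inhibition without the replicate block. Sesn2 between the treatments was 0.00426 with RLE factors, 0.00393 with DESeq2 and 0.00447 with DESeq2 without a filter. Depth limits Slc7a11 most, at 235 UMIs.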
